A study of Mus musculus with 15 samples.

Results

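CC chemokines were followed across 5 sources of mouse fibroblast RNA. The members were 8 genes of the 16463 gene symbols on the array (Ccl2, Ccl5, Ccl7, Ccl8, Ccl11, Ccl17, Ccl20 and Ccl25), found by their symbol in the gene name column or in brackets in the description of the scanner files. They had 10 probes of the 41174 on the array, with 2 probes each for Ccl7 and Ccl25 and 1 for each other gene, and all 10 were among the 38522 probes tested. The 3 resistant sources (TAF-el4, TAF-tib42 and TAF-tib48) and the 2 sensitive sources (TAF-tib6 and NSF), so named in the labels, were each measured on 3 arrays. The series title ties them to tumours that do not respond to treatment against VEGF, the growth factor of blood vessels. Every array held the fibroblast RNA in Cy5 and a commercial mouse reference RNA from Stratagene in Cy3, and the dyes were never swapped. No strain, age, treatment, culture or host is given in the sources used here, nor what the letters in the source names stand for. Whether replicate arrays stand for different cultures or animals is not stated. The p-values below therefore rest on array-to-array spread, part or all of which may be technical.

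Chemokines of the CC class are small secreted proteins that draw white blood cells along a gradient through receptors on those cells. Fibroblasts are known to make several of them, and NF-kB, a transcription factor family released by inflammatory signals, is a known driver of Ccl2, Ccl5, Ccl7 and Ccl20. Ccl2, Ccl7, Ccl8 and Ccl11 are known in mouse as attractants of monocytes, eosinophils or T cells, and Ccl20 draws cells that carry Ccr6. Ccl17 acts on Ccr4 and Ccl25 on Ccr9.

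The probes fell into 3 patterns, described gene by gene below with values as log2 of the Cy5 to Cy3 ratio. Ccl2 and Ccl7 were lower in TAF-el4 and TAF-tib48 than in both sensitive sources, whereas TAF-tib42 was near them. Ccl8 and Ccl11 were lower in all 3 resistant sources than in both sensitive sources. Ccl20 was higher in NSF than in every other source, and Ccl5, Ccl17 and Ccl25 spanned at most 0.34 between source means.

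**Figure D1:**
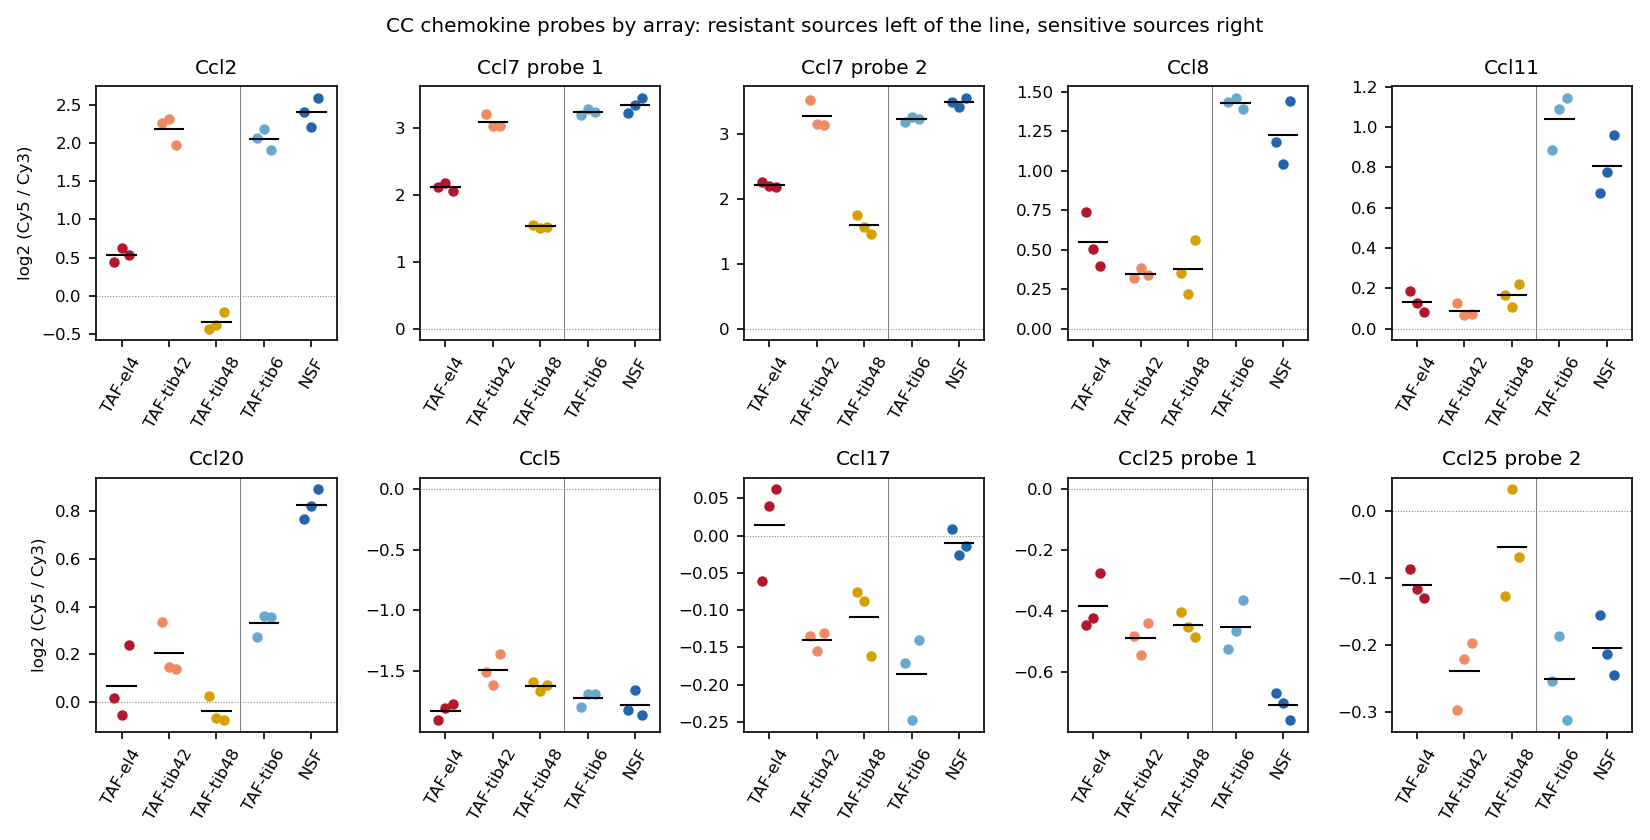
Log2 Cy5 to Cy3 ratio of the 10 probes on each array (points, 3 per source) with the source mean (bar). Each panel has its own vertical axis, and resistant sources stand left of the grey line. No array of a resistant source reaches any sensitive array for Ccl8 and Ccl11, while the 3 TAF-tib42 arrays lie among the sensitive ones for Ccl2.

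The arrays were alike in brightness, with a median Cy5 intensity of 173.3 to 282.3 against a local background of 52 to 56. The log2 ratios correlated at 0.9595 to 0.9873 between arrays of a source and at 0.8401 to 0.9484 between sources. All 10 fibroblast markers on the array, such as Col1a1 and Pdgfra, exceeded the 95th percentile of the 314 negative control spots on every array. Their summed Cy5 signal after background subtraction was 263200 to 316800 over the resistant and 313600 to 337400 over the sensitive arrays, but Col1a1, Col1a2 and Vim were saturated on all 15 arrays and Col3a1 on those of TAF-tib42, TAF-tib6 and NSF, so these sums are lower bounds. Pdgfra, a single unsaturated marker that does not stand for the list, had mean log2 ratios of 0.26 in TAF-el4, 0.51 in TAF-tib42 and -0.11 in TAF-tib48. Its means were 0.96 in TAF-tib6 and 1.30 in NSF. Its part in the lower chemokine values was not tested. The 10 macrophage and monocyte markers summed to 2039 to 3603 over the resistant and 2083 to 3256 over the sensitive arrays. None of the dendritic cell, lymphocyte, endothelial and epithelial markers on the array was at 0 either, since all exceeded the same percentile on every array. Endothelial markers summed to 1767 to 3040 in TAF-tib48 against 800.6 to 1433 in the other sources. Most of that gap was Emcn, with a mean Cy5 signal of 1227 in TAF-tib48 and 198 to 275 elsewhere, while Kdr had a mean log2 ratio of 0.18 in TAF-tib48 against 0.17 to 0.19 elsewhere, and the part of these markers in the TAF-tib48 values below was not tested. Fewer cells of a type and less RNA per cell cannot be told apart in such bulk samples.

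Ccl2, also called MCP-1, is the main attractant of monocytes that carry Ccr2. Its log2 ratios were 0.45, 0.62 and 0.53 in TAF-el4, 2.26, 2.31 and 1.97 in TAF-tib42 and -0.43, -0.38 and -0.21 in TAF-tib48. The sensitive sources had 2.07, 2.18 and 1.91 in TAF-tib6 and 2.40, 2.21 and 2.60 in NSF. Every TAF-el4 and TAF-tib48 array was below every sensitive array, and TAF-tib42 overlapped both sensitive sources. Ccl2 was 2.87-fold lower in TAF-el4 than in TAF-tib6 (log2 difference -1.52, SE 0.097, limma adjusted p = 2.07e-09) and 5.26-fold lower in TAF-tib48 than in TAF-tib6 (log2 difference -2.40, SE 0.097, adjusted p = 2.27e-12). It was 3.65-fold lower in TAF-el4 than in NSF and 6.71-fold lower in TAF-tib48 than in NSF, the widest gap between 2 sources for this gene. Differences of TAF-tib42 were 0.13 from TAF-tib6 (adjusted p = 0.38) and -0.22 from NSF (adjusted p = 0.109). The first was 0.42 and called in the Cy5 channel alone, and the second was called at -0.32 without NSF replicate 2 and at -0.33 under median centring. The order of the source means was NSF, TAF-tib42, TAF-tib6, TAF-el4, TAF-tib48, and the first 3 overlapped their neighbours. Background-subtracted Cy5 signals were 8351 to 11460 in TAF-el4, 44212 to 49385 in TAF-tib42 and 4535 to 7273 in TAF-tib48, against 32021 to 38459 in TAF-tib6 and 52513 to 64491 in NSF.

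Ccl7, or MCP-3, also acts on monocytes through Ccr2 and lies next to Ccl2. Probe 1 read 2.12, 2.18 and 2.05 in TAF-el4, 3.20, 3.02 and 3.03 in TAF-tib42 and 1.55, 1.51 and 1.52 in TAF-tib48. The same probe read 3.20, 3.28 and 3.24 in TAF-tib6 and 3.23, 3.35 and 3.45 in NSF. TAF-el4 and TAF-tib48 lay below all sensitive arrays, as with Ccl2, and below all TAF-tib42 arrays. Probe 2 read 2.26, 2.20 and 2.18 in TAF-el4, 3.52, 3.15 and 3.14 in TAF-tib42 and 1.76, 1.57 and 1.45 in TAF-tib48, against 3.18, 3.26 and 3.23 in TAF-tib6 and 3.49, 3.41 and 3.56 in NSF. Both probes put TAF-tib48 lowest and TAF-el4 next, with the other 3 sources close together, and their values correlated at 0.99 over the 15 arrays. In TAF-tib48 the gene was 3.28-fold lower than in TAF-tib6 by probe 1 (log2 difference -1.71, SE 0.058, adjusted p = 2.71e-13) and 3.09-fold lower by probe 2 (log2 difference -1.63, SE 0.084, adjusted p = 6.23e-11). In TAF-el4 it was 2.18-fold lower than in TAF-tib6 by probe 1 and 2.01-fold lower by probe 2. TAF-tib42 differed from NSF by -0.26 by probe 1 (adjusted p = 0.00283) and by -0.22 by probe 2 (adjusted p = 0.0696). The probe 1 difference turned to 0.11 once log ratios were scaled to a common spread between arrays, and the probe 2 difference was called at -0.34 without TAF-tib42 replicate 1. Without that array probe 1 also differed between TAF-tib42 and TAF-tib6, by -0.21, against -0.15 with it (adjusted p = 0.0625).

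Ccl2 and Ccl7 also separated the resistant sources from each other. Ccl2 was 5.75-fold higher in TAF-tib42 than in TAF-tib48 (log2 difference 2.52, SE 0.097, adjusted p = 1.16e-12) and 1.84-fold higher in TAF-el4 than in TAF-tib48 (adjusted p = 1.71e-06). It was 3.13-fold lower in TAF-el4 than in TAF-tib42 (adjusted p = 2.64e-10). In the Cy5 channel alone Ccl2 was 9.22-fold higher in TAF-tib42 than in TAF-tib48 and 5.04-fold lower in TAF-el4 than in TAF-tib42. Ccl7 followed the same order, with probe 1 higher by a log2 difference of 1.56 in TAF-tib42 than in TAF-tib48 and by 0.59 in TAF-el4 than in TAF-tib48, the second not called under scaled log ratios (0.57). The slides fell into 3 runs of consecutive slide numbers, called packs here, a grouping inferred from the numbers alone. The same differences were taken between arrays of 1 pack. For Ccl2 they were -1.87 between TAF-el4 and NSF, -2.35 between TAF-tib48 and TAF-tib6, 2.61 between TAF-tib42 and TAF-tib48, 0.96 between TAF-el4 and TAF-tib48 and -1.65 between TAF-el4 and TAF-tib42. The first 2 of these were called within their packs as well. In the other 3 pairs TAF-el4 and TAF-tib48 each had 1 array in the pack, so only the size is given. For Ccl7 the within-pack differences of probe 1 were -1.20, -1.73, 1.53, 0.50 and -1.04 in the same order of pairs, the first 2 called. Probe 2 gave 0.43 between TAF-el4 and TAF-tib48 within a pack, with 1 array each, against 0.62 over all arrays (adjusted p = 1.83e-05).

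Ccl8, or MCP-2, acts in mouse on Ccr8. Its log2 ratios were 0.74, 0.50 and 0.40 in TAF-el4, 0.32, 0.38 and 0.34 in TAF-tib42 and 0.35, 0.22 and 0.56 in TAF-tib48. They were 1.44, 1.46 and 1.39 in TAF-tib6 and 1.18, 1.04 and 1.44 in NSF. The 9 resistant arrays all lay below the 6 sensitive arrays, with no overlap, while TAF-tib48 overlapped both other resistant sources. Differences from TAF-tib6 were -0.88 in TAF-el4, -1.08 in TAF-tib42 and -1.05 in TAF-tib48 (SE 0.094 each, adjusted p at most 1.32e-06). Differences from NSF were -0.68 in TAF-el4, -0.88 in TAF-tib42 and -0.85 in TAF-tib48 (adjusted p at most 2.92e-05). No pair of resistant sources differed by the test, with differences from -0.03 to 0.20. Within a pack the difference was -0.60 between TAF-el4 and NSF and -1.04 between TAF-tib48 and TAF-tib6, both called. With the pack as a block the difference between TAF-tib48 and NSF, which share no pack, was -0.65 and lost its call (adjusted p = 0.0563).

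The Ccl8 signal was dim in the reference RNA, which bears on its fold. Cy3 signals after background subtraction were 69.0 to 90.6 in the resistant arrays and 60.4 to 97.1 in the sensitive arrays, against a 95th percentile of negative controls of 38 to 50. An offset of 50 added in the background correction draws such ratios towards 0. By the scanner's own ratios, which carry no such offset, Ccl8 was 2.07-fold lower in TAF-el4, 2.59-fold lower in TAF-tib42 and 2.61-fold lower in TAF-tib48 than in TAF-tib6, and 2.30-fold, 2.88-fold and 2.91-fold lower than in NSF in the same order. These 6 differences were called under either ratio. In the Cy5 channel alone TAF-tib6 exceeded NSF by 0.64 (log2), which was called, whereas the scanner's ratios gave -0.16 and the offset ratios 0.21 (adjusted p = 0.179). It was called at 0.29 under median centring, at 0.45 under scaled log ratios and at 0.32 without NSF replicate 3. The order of these 2 sources thus changed with the ratio used.

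The 250 bases before the start of Ccl8 are shown since this is the gene that differs in all 3 resistant sources whose promoter was in the RefSeq table (GRCm38.p6, chr11:82114935-82115184, plus strand, 5′ to 3′). The capitals mark the core promoter motif TATAAA from base -32 to -27 before the start. This match stands in 12.4% of 32851 RefSeq promoter windows of the same length, searched on both strands.
Ccl8 promoter: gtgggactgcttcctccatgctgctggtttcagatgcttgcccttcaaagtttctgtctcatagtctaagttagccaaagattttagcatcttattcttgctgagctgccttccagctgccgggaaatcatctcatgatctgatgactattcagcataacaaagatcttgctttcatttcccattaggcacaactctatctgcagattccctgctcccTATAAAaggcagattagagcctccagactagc
No match was found in this window for a kappaB-type motif (GGGNNNNNCC), for the AP-1 motif TGANTCA or for the STAT palindrome TTCNNNGAA, which stand in 45.8%, 6.75% and 7.02% of the windows. A match or its lack describes these letters only.

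Ccl11, or eotaxin, draws eosinophils through Ccr3. Its log2 ratios were 0.18, 0.13 and 0.08 in TAF-el4, 0.13, 0.07 and 0.07 in TAF-tib42 and 0.17, 0.11 and 0.22 in TAF-tib48. Those of the sensitive sources were 0.89, 1.09 and 1.15 in TAF-tib6 and 0.67, 0.78 and 0.96 in NSF. All resistant arrays were again below all sensitive arrays, and the 3 resistant sources overlapped each other. Differences from TAF-tib6 were -0.91 in TAF-el4, -0.95 in TAF-tib42 and -0.88 in TAF-tib48 (SE 0.069 each, adjusted p at most 1.93e-08), and those from NSF were -0.67, -0.72 and -0.64 (adjusted p at most 1.01e-06). Within a pack the difference was -0.65 between TAF-el4 and NSF and -0.88 between TAF-tib48 and TAF-tib6, both called.

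Ccl11 stood close to the floor of the array in the resistant sources, so the size of its fold depended on the ratio used. Its Cy5 signals were 33.9 to 55.6 in TAF-el4, 34.4 to 36.3 in TAF-tib42 and 28.3 to 45.8 in TAF-tib48, against 145 to 167 in TAF-tib6 and 117 to 204 in NSF. Negative controls had a 95th percentile of 13.6 to 23 in this channel, so the gene was above them on all 15 arrays. In the Cy3 reference it was well above background on 3 of the 15 arrays. By the scanner's ratios it was 4.04-fold lower in TAF-el4, 5.20-fold lower in TAF-tib42 and 3.40-fold lower in TAF-tib48 than in TAF-tib6, against 1.88-fold, 1.94-fold and 1.83-fold with the offset. The lower values in the 6 comparisons with a sensitive source were called under both. TAF-tib6 was 0.24 higher than NSF (adjusted p = 0.0326) with overlapping arrays, and this call was lost without NSF replicate 1 (0.17), NSF replicate 2 (0.22), TAF-tib6 replicate 2 (0.21) or TAF-tib6 replicate 3 (0.18), and by the scanner's ratios (0.32, adjusted p = 0.643).

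**Figure D2:**
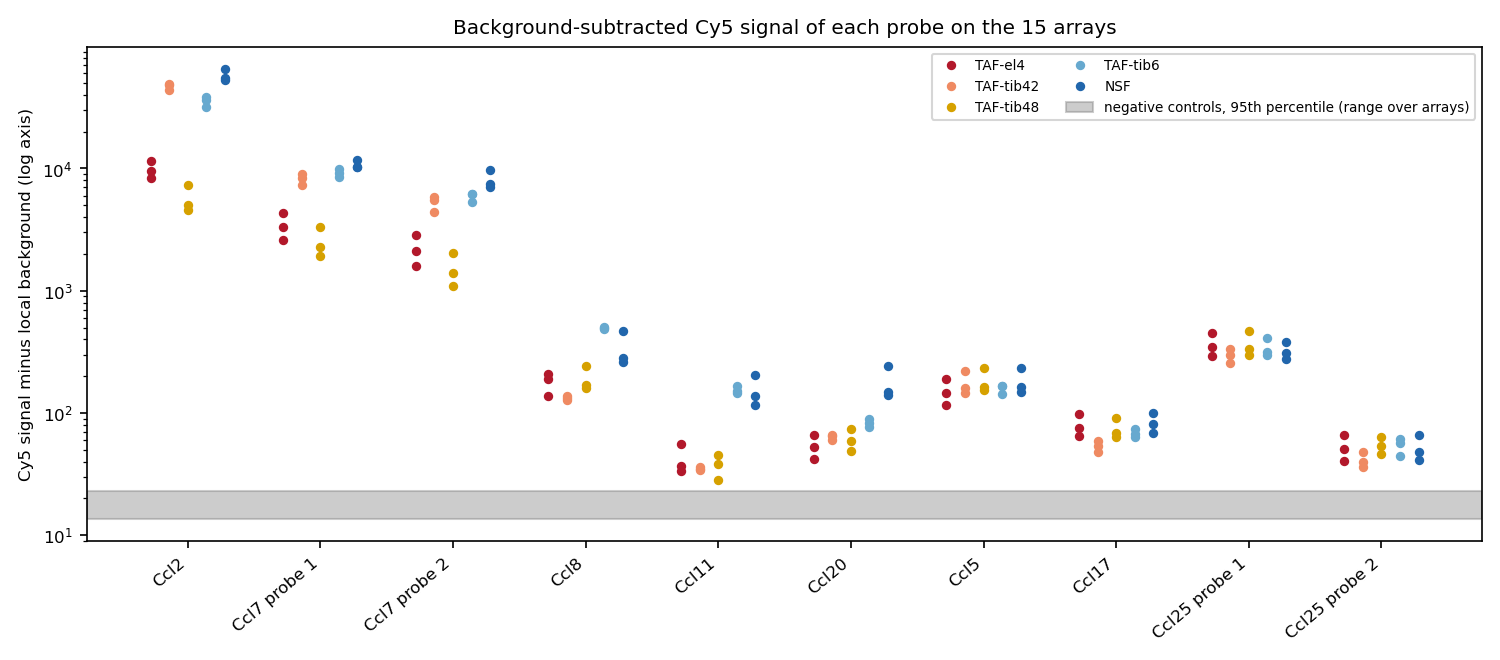
Cy5 signal minus local background (log axis) of the 10 probes on the 15 arrays, coloured by source, with the range over arrays of the 95th percentile of negative controls in grey. Ccl11 in the 3 resistant sources lies between 28.3 and 55.6, just above the grey band.

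**Figure D3:**
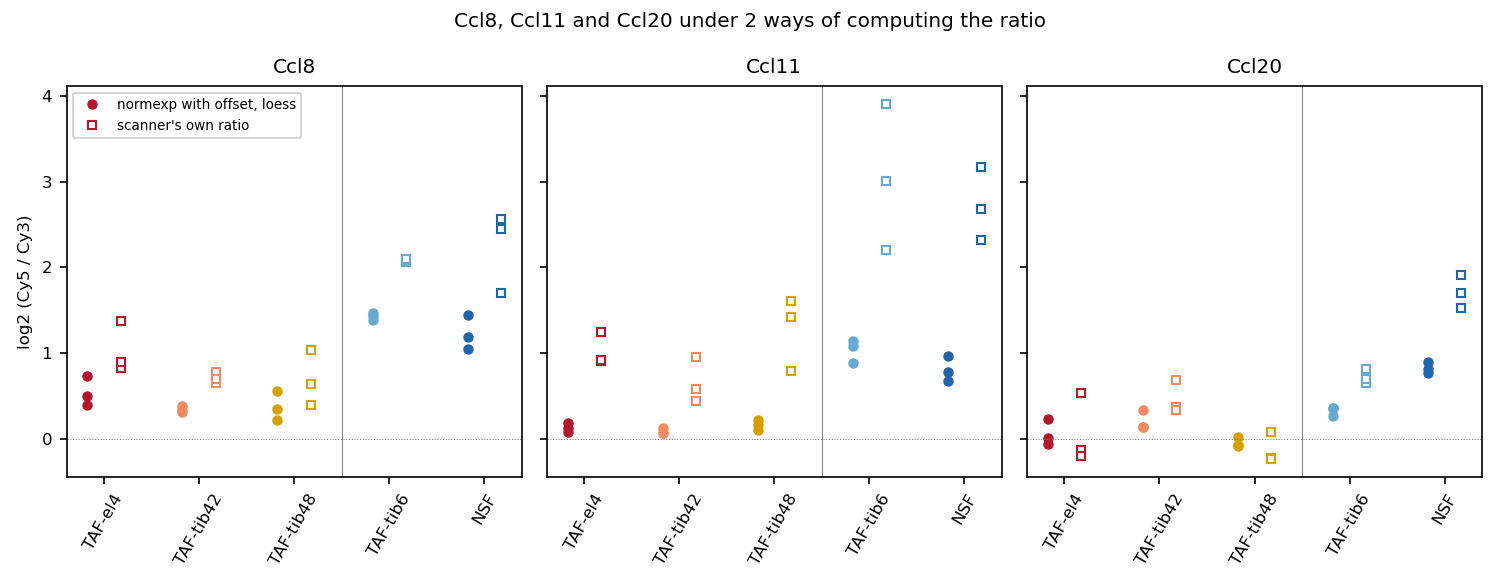
Log2 ratios of Ccl8, Ccl11 and Ccl20 on each array, as normexp and loess ratios with an offset of 50 (filled circles) and as the scanner's own ratios (open squares). Resistant sources stand left of the grey line. The scanner's ratios of Ccl11 reach 3.91 in TAF-tib6, where the offset ratios stay at or below 1.15.

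Ccl20, the ligand of Ccr6, was set apart by NSF. It had 0.02, -0.06 and 0.24 in TAF-el4, 0.33, 0.15 and 0.14 in TAF-tib42 and 0.02, -0.07 and -0.08 in TAF-tib48. TAF-tib6 had 0.27, 0.36 and 0.36 and NSF 0.77, 0.82 and 0.89. Every array of the other 4 sources was below every NSF array. It differed from NSF by -0.76 in TAF-el4, -0.62 in TAF-tib42, -0.87 in TAF-tib48 and -0.50 in TAF-tib6 (SE 0.068 each, adjusted p at most 4.56e-05). The drop against TAF-tib6 was smaller, -0.26 in TAF-el4 (adjusted p = 0.0082) and -0.37 in TAF-tib48 (adjusted p = 0.000432), and TAF-tib42 was at -0.12 (adjusted p = 0.204). The TAF-el4 call was lost without TAF-el4 replicate 2 (-0.20) and with the pack as a block (-0.19). By the scanner's ratios Ccl20 was 3.12-fold lower in TAF-el4, 2.38-fold lower in TAF-tib42, 3.57-fold lower in TAF-tib48 and 1.99-fold lower in TAF-tib6 than in NSF, against 1.70-fold, 1.54-fold, 1.83-fold and 1.41-fold with the offset. Within a pack the differences were -0.85 between TAF-el4 and NSF and -0.40 between TAF-tib48 and TAF-tib6.

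The window before Ccl20 is shown for comparison with Ccl8, since it is the one member window that held a kappaB-type match (RefSeq, GRCm38.p6, chr1:83116516-83116765, plus strand, 5′ to 3′). The capitals mark 3 overlapping matches of GGGNNNNNCC, read on either strand, from base -82 to -71.
Ccl20 promoter: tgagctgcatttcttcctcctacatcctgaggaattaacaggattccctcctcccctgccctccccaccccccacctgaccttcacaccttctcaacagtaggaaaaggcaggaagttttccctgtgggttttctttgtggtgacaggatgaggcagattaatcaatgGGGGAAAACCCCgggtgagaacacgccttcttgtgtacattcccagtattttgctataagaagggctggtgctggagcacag
Of the members, the table held windows for Ccl8, Ccl17, Ccl20 and Ccl25, and 4 genes (Ccl2, Ccl5, Ccl7 and Ccl11) were not matched.

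Ccl5, or RANTES, acts on T cells and monocytes. Its log2 ratios were -1.90, -1.81 and -1.77 in TAF-el4, -1.51, -1.61 and -1.36 in TAF-tib42 and -1.59, -1.67 and -1.61 in TAF-tib48, against -1.79, -1.69 and -1.69 in TAF-tib6 and -1.82, -1.66 and -1.86 in NSF. The source means spanned 0.34, and the arrays of TAF-tib42 lay above those of TAF-el4, TAF-tib6 and NSF without overlap. TAF-tib42 was 0.29 above NSF (SE 0.064, adjusted p = 0.00241), which was not called with the pack as a block (0.21), under median centring (0.20) or scaled log ratios (0.10) or in the Cy5 channel alone (0.19), and 0.23 above TAF-tib6 (adjusted p = 0.0118), a call lost under the same 4 settings and without TAF-tib42 replicate 3 (0.16) or TAF-tib6 replicate 1 (0.20). TAF-el4 was 0.34 below TAF-tib42 (log2 difference -0.34, adjusted p = 0.000591), and with the pack as a block the difference was -0.28 and not called. The Ccl5 Cy5 signal was 115 to 235 over the 15 arrays.

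Ccl17, which draws Ccr4-bearing T cells, varied little. It had -0.06, 0.04 and 0.06 in TAF-el4, -0.14, -0.16 and -0.13 in TAF-tib42 and -0.08, -0.09 and -0.16 in TAF-tib48, against -0.17, -0.25 and -0.14 in TAF-tib6 and 0.01, -0.03 and -0.01 in NSF. The widest gap was 0.20 between TAF-el4 and TAF-tib6 (SE 0.044, adjusted p = 0.00251), not called with the pack as a block (0.20) or in the Cy5 channel alone (0.16), and its sources otherwise lay within 0.18 of each other. Its Cy5 signal was 47.7 to 99.3 over the 15 arrays.

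The 2 probes of Ccl25, a ligand of Ccr9 best known from thymus and gut, gave different orders. Probe 1 had -0.45, -0.42 and -0.28 in TAF-el4, -0.48, -0.54 and -0.44 in TAF-tib42 and -0.40, -0.45 and -0.48 in TAF-tib48, against -0.52, -0.47 and -0.36 in TAF-tib6 and -0.67, -0.70 and -0.76 in NSF. By probe 1 the other 4 sources lay above NSF without overlap, by 0.22 to 0.33 (adjusted p at most 0.00453). With the pack as a block the difference from NSF was not called in TAF-tib42 (0.06), TAF-tib48 (0.15) or TAF-tib6 (0.17). Probe 2 had -0.09, -0.12 and -0.13 in TAF-el4, -0.30, -0.22 and -0.20 in TAF-tib42 and -0.13, 0.03 and -0.07 in TAF-tib48, against -0.25, -0.19 and -0.31 in TAF-tib6 and -0.15, -0.21 and -0.25 in NSF. By probe 2 NSF differed from TAF-tib48 alone, which was 0.15 higher (adjusted p = 0.0277), a call lost without NSF replicate 2 (0.15), NSF replicate 3 (0.13) or TAF-tib48 replicate 2 (0.11). The probes correlated at 0.235 over the 15 arrays, so the gene has no single direction here. Probe 2 had a Cy5 signal of 35.9 to 66.6.

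Counted over the 10 probes, each comparison of 2 sources is read against the share of all probes called in it. The members and gene lists were chosen with earlier results of these data known, so a count above that share is not independent support. Against TAF-tib6, 8 of 10 member probes were called in TAF-el4, where 20.6% of all probes were (11.6% higher, 8.96% lower). Ccl2, both Ccl7 probes, Ccl8, Ccl11 and Ccl20 were the 6 lower ones, and Ccl17 and Ccl25 probe 2 were higher. The Ccl25 probe 2 difference of 0.14 (adjusted p = 0.0481) kept its call only when the array left out was TAF-tib6 replicate 2, and was 0.11 to 0.15 and not called without any other array of the pair. In TAF-tib48 against TAF-tib6, 7 of 10 were called, the same 6 lower and Ccl25 probe 2 higher, beside 24.8% of all probes (12.3% higher, 12.5% lower). The Ccl25 probe 2 difference of 0.20 turned to -0.03 in the Cy5 channel alone. In TAF-tib42 against TAF-tib6, 3 of 10 were called (Ccl8 and Ccl11 lower, Ccl5 higher), beside 24.7% of all probes (12.1% higher, 12.6% lower). That share of members was near the background. The median difference over the 10 probes was -0.57 in TAF-el4, -0.01 in TAF-tib42 and -0.62 in TAF-tib48. Medians over all probes lay between -0.0054 and 0.0065 in every comparison of 2 sources.

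Against NSF, 7 of 10 were called in TAF-el4, beside 17.4% of all probes (8.9% higher, 8.54% lower). In TAF-tib42, 7 of 10 were called, beside 24.2% of all probes (11.2% higher, 13% lower), and in TAF-tib48 8 of 10, beside 26.5% (12.4% higher, 14.1% lower). Ccl8, Ccl11 and Ccl20 were lower in all 3, and Ccl25 probe 1 was higher in all 3. TAF-tib42 added Ccl7 probe 1 and Ccl17 as lower and Ccl5 as higher. The Ccl17 difference of -0.13 (adjusted p = 0.0387) lost its call whichever 1 of the 6 arrays was left out (-0.12 to -0.14). With the pack as a block 3 of 10 were called in TAF-tib42 against NSF (7.73% of all probes), 5 in TAF-tib48 against NSF (6.42%) and 5 in TAF-el4 against TAF-tib6 (5.45%). These comparisons share their sensitive arrays within each set, so they are given side by side and not as independent support.

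**Figure D4:**
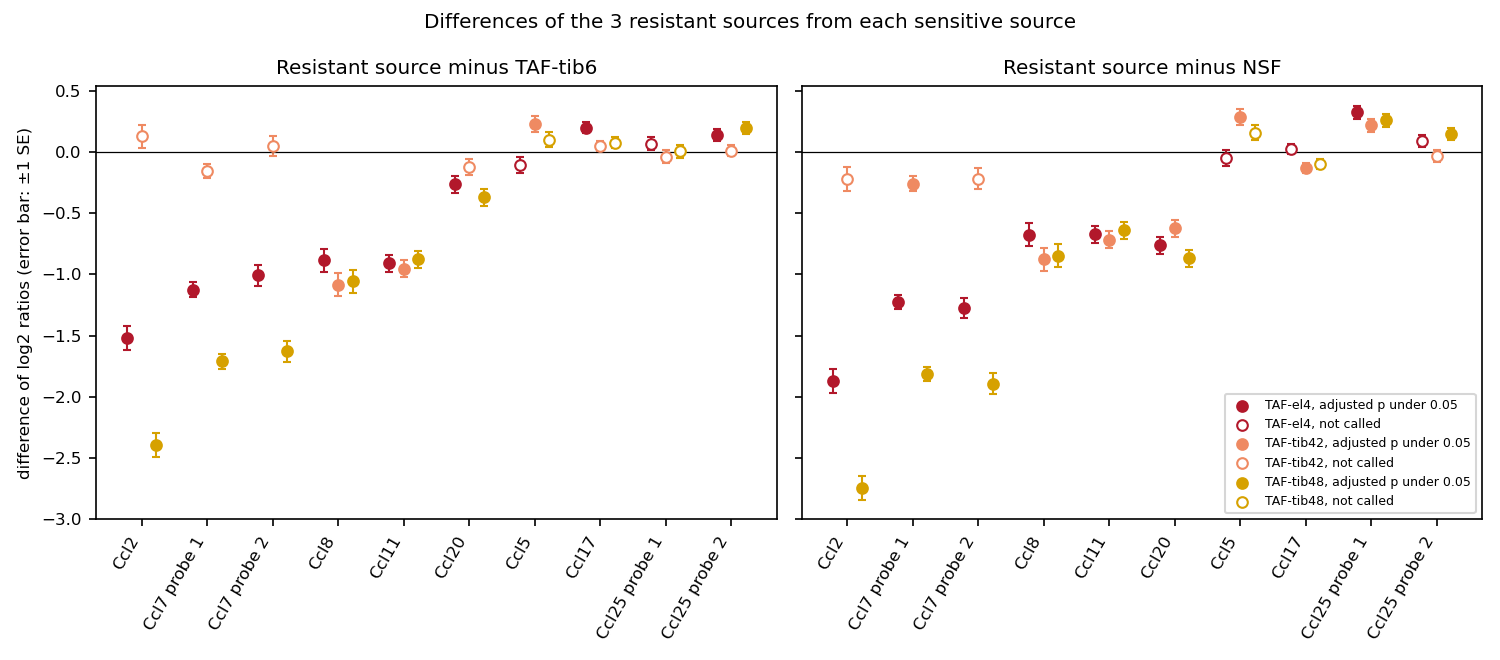
Difference of log2 ratios between each resistant source and TAF-tib6 (left) or NSF (right) for the 10 probes, with bars of 1 SE from the limma fit. Filled points have an adjusted p under 0.05. TAF-tib42 stands near 0 for Ccl2 and both Ccl7 probes and with the other resistant sources for Ccl8 and Ccl11.

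Set against each other, the sensitive sources differed in 6 of 10 probes (TAF-tib6 against NSF), beside 11% of all probes (4.41% higher, 6.61% lower). Ccl11 and Ccl25 probe 1 were higher in TAF-tib6, and Ccl2, Ccl7 probe 2, Ccl17 and Ccl20 were lower. Ccl17 differed by -0.18 (adjusted p = 0.0133) and was not called without TAF-tib6 replicate 2 (-0.15) or NSF replicate 1 (-0.17). Of these, Ccl20 kept its call with the pack as a block (-0.66, adjusted p = 0.0152), and 1 of 10 member probes was called in that fit, beside 1.32% of all probes. Ccl2 differed by -0.35 (adjusted p = 0.0247), a value that became 0.04 under scaled log ratios, and its call was lost without NSF replicate 1 or 3 or TAF-tib6 replicate 1 or 3 (-0.25 to -0.36). Ccl7 probe 2 differed by -0.26 (adjusted p = 0.0497), a value of 0.34 under scaled log ratios and 0.03 with the pack as a block, and any of the 6 arrays left out ended its call. NSF and TAF-tib6 were on slides of different packs.

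Between resistant sources, 5 of 10 probes were called in TAF-el4 against TAF-tib42 (23.1% of all probes, 13.2% higher and 9.86% lower), with Ccl2, both Ccl7 probes and Ccl5 lower and Ccl17 higher. Ccl17 (0.15) lost its call without TAF-el4 replicate 2 (0.14) or 3 (0.13). In TAF-el4 against TAF-tib48, 4 of 10 were called (23.6% of all probes, 13.5% higher and 10.1% lower), with Ccl2 and both Ccl7 probes higher and Ccl5 lower. Ccl5 (-0.21) lost its call without TAF-el4 replicate 1 (-0.17) or TAF-tib48 replicate 1 (-0.19) or 3 (-0.20). It was also not called in the Cy5 channel alone (-0.05), under median centring (-0.17) or scaled log ratios (-0.20), or with the pack as a block (-0.19). In TAF-tib42 against TAF-tib48, 5 of 10 were called (14.2% of all probes, 6.46% higher and 7.7% lower), with Ccl2, both Ccl7 probes and Ccl20 higher and Ccl25 probe 2 lower. Ccl20 (0.25) lost its call without TAF-tib42 replicate 1 (0.18) or TAF-tib48 replicate 2 or 3 (0.23 each), and Ccl25 probe 2 (-0.18) without TAF-tib42 replicate 1 (-0.16) or TAF-tib48 replicate 2 (-0.14). Ccl8 and Ccl11 were called in none of these 3 comparisons. Over all 5 sources together, the moderated F test called each of the 10 probes (adjusted p at most 0.00818), beside 43.4% of all probes.

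Taken as a group of 3 source means against 2, resistant against sensitive, no member probe was called by limma, beside 0.0026% of all probes, which is 1 of 38522. At an unadjusted p under 0.05 there were 3666 probes in all. Ccl8 differed by -0.90 (SE 0.092, adjusted p = 0.256) and Ccl11 by -0.79 (SE 0.079, adjusted p = 0.256), with all 3 resistant means below both sensitive means. Over the alternatives that compare source means, the adjusted p of Ccl8 was 0.0969 to 0.686 and that of Ccl11 0.108 to 0.536. Ccl2 differed by -1.44 (SE 0.731, adjusted p = 0.616), -2.13 without TAF-tib42 and -0.87 without TAF-tib48. Ccl20 differed by -0.50 (adjusted p = 0.437), but by -0.25 without NSF and -0.75 without TAF-tib6. With the 15 arrays entered and the source as a random block (consensus correlation 0.399), 4 of 10 member probes were called, beside 4.77% of all probes, namely Ccl7 probe 1, Ccl8, Ccl11 and Ccl20. Those 4 probes also had all resistant means below both sensitive means. The random-block fit applied 1 correlation to all probes although the response is fixed per source, so its p-values can be too small. Its SE for Ccl2 was 0.414, against 0.731 on source means.

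In the RefSeq gene order of chromosome 11, Ccl2, Ccl7, Ccl11, Ccl12, Ccl8 and Ccl1 stand in a row, so the members with the first 2 patterns are near neighbours. Ccl12, the gene between Ccl11 and Ccl8, differed by at most 0.09 in any comparison of 2 sources and was called in none. Ccl1 was called once, 0.17 higher in TAF-tib42 than in NSF. Ccl5 lies elsewhere on the same chromosome, beside Ccl9, Ccl6, Ccl3 and Ccl4. The 15 arrays came from 5 sources, share a Cy3 reference and were all scanned on the same day. Over these arrays the ratios of Ccl2 correlated with those of Ccl7 at 0.988 (probe 1) and 0.986 (probe 2), and Ccl8 with Ccl11 at 0.965. Ccl2 and Ccl8 correlated at 0.579.

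Genes with the pattern most like a member were sought among 552 gene symbols whose source means also spanned at least 1 on the log2 scale, by Pearson correlation over 15 arrays. For Ccl2 they were Ccl7 (0.988), Tsc22d1 (0.987) and Plscr2 (0.977). Ccl7 probe 1 was most like Tsc22d1 (0.991), Ccl2 (0.988) and the acute phase gene Saa3 (0.971), and probe 2 like Ccl2, Tsc22d1 and Plscr2. For Ccl8 they were Cyp7b1 (0.978), an oxysterol hydroxylase, and the transcription factor genes Tcf4 (0.95) and Zfp503 (0.95). The other members spanned less than 1 between source means and had no such search. With arrays from 5 sources and genes kept for a wide span, these high correlations rest largely on 5 source means.

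Genes of NF-kB signalling, 19 of which were measured, were called lower more often than higher in TAF-el4 and TAF-tib48 against both sensitive sources. Against TAF-tib6, 9 were lower and 1 higher in TAF-el4 (median -0.08), 3 lower and 6 higher in TAF-tib42 (median 0.08), and 11 lower and 3 higher in TAF-tib48 (median -0.25). Over all probes the shares were 8.96% lower and 11.6% higher in TAF-el4, 12.6% and 12.1% in TAF-tib42, and 12.5% and 12.3% in TAF-tib48. Against NSF, 9 were lower and 1 higher in TAF-el4, 6 lower and 2 higher in TAF-tib42, and 10 lower and 2 higher in TAF-tib48, where 8.54%, 13% and 14.1% of all probes were lower in the same order. The sensitive TAF-tib6 also had 5 lower and none higher than NSF, beside 6.61% of all probes lower and 4.41% higher. Lower counts against NSF were thus not limited to resistant sources. In TAF-tib42 against TAF-tib48, 10 were higher and none lower, beside 6.46% of all probes higher and 7.7% lower. Nfkbia, the inhibitor that NF-kB itself induces, differed from TAF-tib6 by -1.58 in TAF-el4 and -1.42 in TAF-tib48 (SE 0.083, adjusted p at most 3.68e-10), and by 0.22 in TAF-tib42 (adjusted p = 0.0591). Nfkbiz, a nuclear regulator of the pathway, differed by -0.53 in TAF-el4, 0.21 in TAF-tib42 and -0.98 in TAF-tib48, all called. Relb, a subunit, was lower than in TAF-tib6 by 0.57 in TAF-el4 (log2 difference -0.57) and differed by -0.25 in TAF-tib48, with 0.08 in TAF-tib42 (adjusted p = 0.325). Nfkb2, another subunit, ran the other way, 0.70 higher in TAF-tib42 and 0.37 higher in TAF-tib48 than in TAF-tib6.

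**Figure D5:**
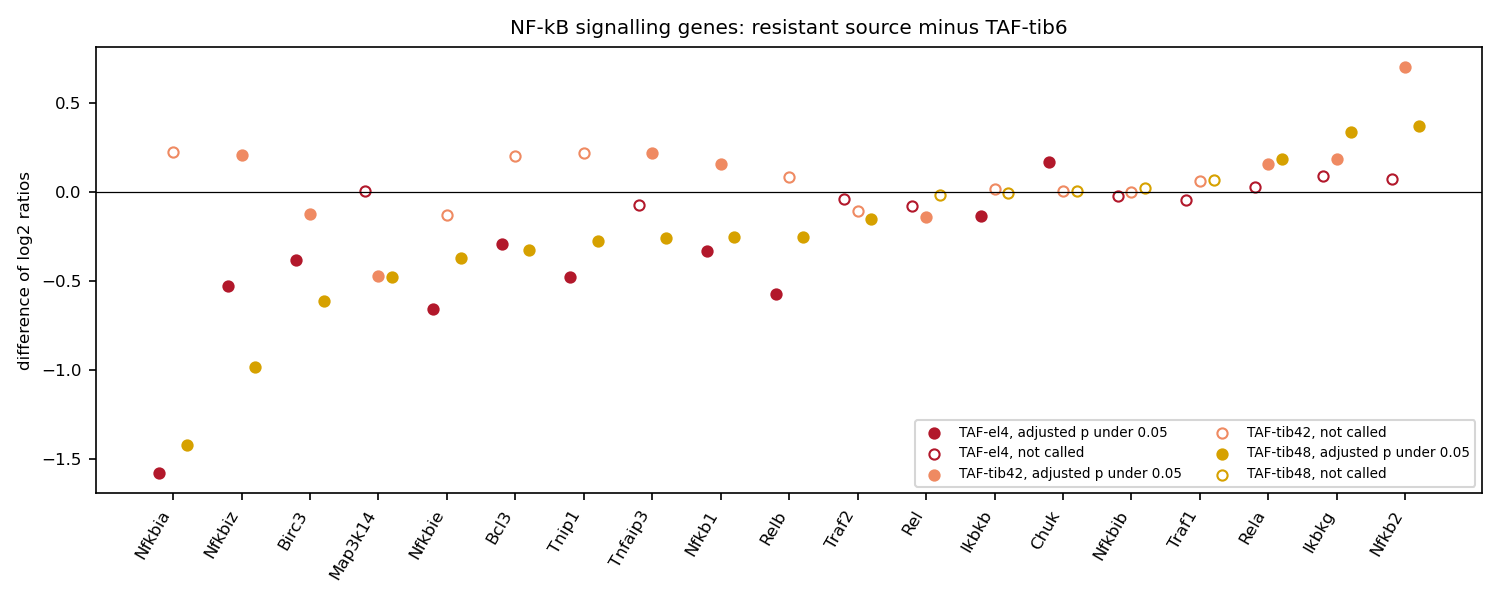
Difference of log2 ratios between each resistant source and TAF-tib6 for 19 NF-kB signalling genes, ordered by the TAF-tib48 value. Filled points have an adjusted p under 0.05. Nfkbia lies at -1.58 in TAF-el4 and -1.42 in TAF-tib48 and at 0.22 in TAF-tib42.

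Of the inputs that act on chemokine genes, Il1r1, the receptor of interleukin 1, was lower than in NSF by log2 differences of -0.45 in TAF-el4, -1.28 in TAF-tib42 and -1.57 in TAF-tib48, all called. Tlr2, a receptor of bacterial lipoproteins, differed by -0.68 in TAF-el4, -0.01 in TAF-tib42 and -0.60 in TAF-tib48 against TAF-tib6. Il1rn, the natural antagonist of interleukin 1, was high in TAF-tib6 alone, with differences from it of -1.32 in TAF-el4, -1.67 in TAF-tib42 and -1.46 in TAF-tib48, and 1.27 higher in TAF-tib6 than in NSF. Among 26 genes of this list, 5 were lower and 4 higher in TAF-el4, 4 lower and 4 higher in TAF-tib42, and 12 lower and 3 higher in TAF-tib48 than in TAF-tib6. Of all probes, 20.6%, 24.7% and 24.8% were called in these comparisons in either direction, so the TAF-tib42 count was near the background. Against NSF, 8 were lower and 1 higher in TAF-el4, 11 and 2 in TAF-tib42, and 14 and 1 in TAF-tib48. The sensitive TAF-tib6 had 11 lower and 2 higher than NSF, so lower values than NSF were not limited to resistant sources. Of all probes 8.54%, 13%, 14.1% and 6.61% were lower than in NSF in that order.

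STAT and IRF factors, which carry interferon and cytokine signals, differed between each pair of resistant sources. Of 13 measured, 8 were higher and 1 lower in TAF-tib42 than in TAF-tib48, beside 6.46% of all probes higher and 7.7% lower. In TAF-el4, 5 were higher and 6 lower than in TAF-tib42, beside 13.2% and 9.86% of all probes. Against TAF-tib48 it had 5 higher and 4 lower, beside 13.5% and 10.1%. In TAF-tib42 against TAF-tib6, 5 were higher and 4 lower, beside 12.1% and 12.6% of all probes. Stat2 was 0.81 higher in TAF-tib42 than in TAF-tib6 and Irf9 0.80 higher, both partners in the response to type I interferon. In TAF-el4 3 were lower than in TAF-tib6 and none higher, beside 8.96% and 11.6% of all probes, and in TAF-tib48 6 were lower and 1 higher, beside 12.5% and 12.3%.

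Of 10 further CC chemokines tested, 1 was higher in TAF-el4, 4 in TAF-tib42 and 3 in TAF-tib48 than in TAF-tib6, and none was lower, beside 11.6%, 12.1% and 12.3% of all probes higher. Against NSF none was higher and 1 lower in TAF-el4, 4 higher and 1 lower in TAF-tib42, and 2 higher and 1 lower in TAF-tib48, beside 17.4%, 24.2% and 26.5% of all probes called. Ccl9, a macrophage chemokine, was 0.34 higher in TAF-tib42 and 0.70 higher in TAF-tib48 than in TAF-tib6. Ccl27a, known from skin, differed from NSF by -0.22 in TAF-el4, -0.40 in TAF-tib42, -0.85 in TAF-tib48 and -0.72 in TAF-tib6. Of 13 receptors and scavengers tested, at most 1 was called in any comparison of 2 sources, where 11% to 26.5% of all probes were. Ccr3, the receptor of Ccl11, was called in TAF-tib48 against TAF-tib6 (-0.21). Of 10 proteases, including some known to trim chemokines, 4 were lower than in TAF-tib6 in each resistant source. In the same comparisons 1 was higher in TAF-el4, 2 in TAF-tib42 and 2 in TAF-tib48 (medians -0.003, 0.015 and -0.058). Of all probes 8.96%, 12.6% and 12.5% were lower in that order, and 11.6%, 12.1% and 12.3% higher. Among these proteases, Mmp2 differed from TAF-tib6 by -0.75 in TAF-el4, -0.45 in TAF-tib42 and -1.33 in TAF-tib48, all called. In resistant against sensitive means, none of the genes in these lists was called.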

How the data were processed

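RNA of 5 fibroblast sources was measured on 15 Agilent 2-colour arrays. The deposited scanner files hold mean spot intensity and median local background per dye, per the file headers, made with Agilent Feature Extraction 8.5.1.1 per the submitters' processing notes, while a protocol label names a later version. Per the file headers they also hold the scanner's own log10 ratio (Cy5 over Cy3, after background subtraction and dye normalisation), and flags for outlier, saturated and well above background spots. The authors' deposited table holds log2 ratios. Each of its columns matched the log2 of the scanner's ratio with a slope of 1 and a correlation of 1, so scale and direction are known, and its medians of 0.0337 to 0.0511 show no centring at 0.

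Background was corrected by normexp with an offset of 50 (limma 3.58.1, R 4.3.3) and dye bias by loess within each array. Control spots (2256) and outlier spots had weight 0 and were left out. Of 41174 probes, the 38522 that were well above background in Cy5 on the 3 arrays of some source entered the tests. Names came from RefSeq (GRCm38.p6) by accession for 22072 probes and from the description or gene name column for 759, and 18343 kept the file's name. A single limma model (lmFit, eBayes) over 15 arrays gave the differences between sources. Resistant and sensitive sources were compared on 5 source means. Tests were two-sided, with Benjamini-Hochberg adjustment over all probes tested and calls at an adjusted p under 0.05. Precision is set by how few arrays there are. The steps were tested on simulated data. Members were named by symbol, every member probe is described, and genes of like pattern were the 3 of highest correlation for probes spanning at least 1. The members and gene lists were chosen with earlier results of these data known. Alternatives were no background subtraction, the scanner's ratios, the authors' table, median centring, scaled log ratios, the Cy5 channel alone, filters on dim probes, 1 probe per gene, slide packs, a replicate block, and leaving out arrays or sources.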

Additional observations from a re-analysis of the deposited data

How the results depend on the processing

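The lower Ccl2 and Ccl7 in TAF-el4 and TAF-tib48 and the lower Ccl8 and Ccl11 in all 3 resistant sources kept direction and call against both sensitive sources under every alternative run, including each array left out in turn, except Ccl8 in TAF-tib48 against NSF with the slide pack as a block. Of the values called for single probes between 2 sources, 650 stayed on their side of the threshold, 81 lost the call and 5 reversed, and with 1 array left out 317 stayed and 43 lost the call. Reversed values were 0.037 for Ccl2, 0.336 for Ccl7 probe 2 (both TAF-tib6 against NSF) and 0.108 for Ccl7 probe 1 (TAF-tib42 against NSF) under scaled log ratios, 0.028 for Ccl7 probe 2 (TAF-tib6 against NSF) with the slide pack as a block, and -0.031 for Ccl25 probe 2 (TAF-tib48 against TAF-tib6) in the Cy5 channel alone. In resistant against sensitive means, Ccl17 turned to -0.031 in the Cy5 channel alone, -0.026 without TAF-el4 and -0.068 without TAF-tib6.

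Of 10 member probes, with the slide pack as a block 5 were called in TAF-el4 against TAF-tib6 and in TAF-tib48 against NSF, 3 in TAF-tib42 against NSF and against TAF-tib48, 2 in TAF-el4 against TAF-tib48 and 1 in TAF-tib6 against NSF. Slide pack 2 held 1 array each of TAF-el4 and TAF-tib48, so no counts are given within it. Scaled log ratios gave 1 in TAF-el4 against TAF-tib48 and 3 in TAF-tib42 against NSF, and the Cy5 channel alone 3 in TAF-tib42 against NSF and against TAF-tib48. With 1 probe per gene 3 were called in TAF-tib42 against TAF-tib48, where fewer member probes are tested. The authors' table gave 3, as did the scanner's ratios, in TAF-tib6 against NSF. With the source as a random block, a fit whose p-values can be too small here, 4 were called in resistant against sensitive arrays. Leaving out 1 array gave 3 to 5 in TAF-tib42 against TAF-tib48 (3 without TAF-tib42 replicate 1 or TAF-tib48 replicate 2) and 2 to 5 in TAF-tib6 against NSF (2 without NSF replicate 1). The causes were not tested where no construction shows them.

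Counts over all probes moved by over 1.5 times with the slide pack as a block, to 2098 (against 7918) in TAF-el4 against TAF-tib6, 3750 (against 9513) in TAF-tib42 against TAF-tib6, 2979 (against 9304) in TAF-tib42 against NSF, 2472 (against 10211) in TAF-tib48 against NSF, 509 (against 4246) in TAF-tib6 against NSF, 5387 (against 8897) in TAF-el4 against TAF-tib42, 3417 (against 9095) in TAF-el4 against TAF-tib48 and 3081 (against 5455) in TAF-tib42 against TAF-tib48. Within a pack the count was 6341 (against 9543) in TAF-tib48 against TAF-tib6. Scaled log ratios gave 3501 (against 6716) in TAF-el4 against NSF, 4955 in TAF-el4 against TAF-tib48, 5548 in TAF-tib42 against NSF, 3096 in TAF-tib42 against TAF-tib48, 5224 in TAF-tib48 against NSF and 2682 in TAF-tib6 against NSF. Median centring gave 7506 in TAF-tib6 against NSF, and the Cy5 channel alone 3149 in TAF-tib42 against TAF-tib48. In resistant against sensitive the count of 1 became 1837 with the random block, 11 without TAF-el4 and 0 without background subtraction, with scaled log ratios, or without NSF, TAF-tib48 or TAF-tib6.

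Replicate numbers did not pair the samples: same-numbered arrays of 2 sources had correlations of their deviations of -0.187 to 0.16, with 2 of 30 over 0.1. A replicate block gave 3 to 8 called member probes per comparison, against 3 to 8 without it, and 7 against 8 in TAF-el4 against TAF-tib6. Signals near the negative controls limit the size of the folds of Ccl8, Ccl11 and Ccl20, and for Ccl8 in TAF-tib6 against NSF the direction too (0.21, but -0.16 by the scanner's ratios).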
